A study of Mus musculus with 35 samples.

Results

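The 9 genes described here sense, carry, take up or remove retinoic acid (RA) and its precursors. They are the nuclear receptors Rara, Rarb and Rarg, the cellular carriers Crabp1 and Crabp2, the retinol transporter Stra6, the retinaldehyde reductase Dhrs3, and the RA-degrading enzymes Cyp26a1 and Cyp26b1. The genes were picked by symbol, and all 9 were found in each of the 3 expression tables, which hold 17948 genes for day 3 cells, 18091 for the Dnmt1 experiment and 17705 for the Tet3-CD experiment. All 9 also passed the filter of a mean value of at least 10.

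Cells make RA from retinol by way of retinaldehyde, and RA acts by binding RA receptors, which sit on DNA as pairs with retinoid X receptors and turn on genes near their binding sites. CYP26 enzymes oxidize RA and DHRS3 returns retinaldehyde to retinol, which both lower RA, while CRABP proteins bind RA in the cytoplasm and pass it to enzymes or receptors. Several of the genes, among them Rarb, Cyp26a1, Stra6, Dhrs3 and Crabp2, are known RA target genes themselves. In the embryo RA patterns the hindbrain and spinal cord, and added RA drives embryonic stem cells (ESCs) in culture toward neural fates.

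The study asked which functions of TET3, an enzyme that oxidizes 5-methylcytosine, need its catalytic activity as ESCs become neuroectoderm (NE). RNA-seq was carried out on 26 samples of male V6.5 mouse ESCs (mixed 129/C57BL/6 background) that had been taken off feeder cells, deprived of LIF and given 1 µM RA for 72 hours, so every group, controls included, received RA. The genotypes were wild type (Tet3+/+), a homozygous catalytic mutant (Tet3m/m) with substitutions in the iron-binding site, and a knockout (Tet3-/-) lacking exon 4. Day 3 cells comprised 3 Tet3+/+, 3 Tet3m/m and 2 Tet3-/- samples, each from a separate clone. In the Dnmt1 experiment, cells of each genotype were transfected at the start of differentiation with a plasmid for myc-tagged DNMT1, the maintenance DNA methyltransferase, or with its empty vector (EV), and selected with blasticidin, with 2 samples per genotype and vector. In the Tet3-CD experiment, cells of each genotype received the HA-tagged wild-type catalytic domain of TET3 (Tet3-CD) or EV, with 1 sample each. The methods place the Tet3-CD collection later than day 3, whereas the sample labels give 72 hours. It is not stated whether the samples of one group of the Dnmt1 experiment are separate clones or cultures, so p-values there measure only the spread between these samples, which may be technical.

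Values are normalized counts, that is, reads per gene divided by a size factor for the sample. Samples held 31155842 to 50845950 reads in genes. Tet3 itself had normalized counts of 4613, 4577 and 5020.0 in Tet3+/+, 2666, 2277 and 1945 in Tet3m/m and 1796 and 2329 in Tet3-/- cells on day 3. It was lower than in Tet3+/+ cells in both mutants, with log2 differences of -1.05 ± 0.13 (SE, limma adjusted p = 0.00071) for Tet3m/m and -1.21 ± 0.15 (SE, limma adjusted p = 0.0274) for Tet3-/-. The 100 tested genes nearest to Tet3 on chromosome 6 had median log2 differences of -0.85 in Tet3m/m and 0.02 in Tet3-/- cells. In the Dnmt1 experiment with EV Tet3 had 2957 and 3075 in Tet3+/+, 1125 and 964 in Tet3m/m and 2520.3 and 2571 in Tet3-/- cells. The counts cover the whole gene and so do not show the loss of exon 4 by itself. The targeted gene of the Dnmt1 experiment, Dnmt1, ranged from 11285 to 17554 with EV and from 20245 to 39854 with the Dnmt1 vector, without overlap. The 5 NE markers checked (Sox1, Pax6, Nes, Neurog2 and Zic1), of which Nes made up most of the reads, had summed normalized counts of 11532 to 18416 in Tet3+/+, 11241 to 13094 in Tet3m/m and 21704 to 24334 in Tet3-/- samples. Against Tet3+/+, Pax6, Neurog2 and Zic1 were called lower in Tet3m/m cells, and in Tet3-/- cells Nes was called higher and Neurog2 lower, with median log2 differences of -0.91 and -0.88 over the 5. Neurog2 was the lowest of them, with 73.2, 123 and 92.9 in Tet3+/+, 14.3, 18.5 and 28.5 in Tet3m/m and 8.48 and 5.69 in Tet3-/- cells. Day 3 sums of the 6 endoderm markers listed below were 8141.5 to 8920.5 in Tet3+/+, 9024 to 12249 in Tet3m/m and 7423 to 9943 in Tet3-/- samples. Those of the 5 fibroblast markers listed below were 13050 to 20357, 8373 to 15340 and 28123 to 34373. In Tet3-/- against Tet3m/m cells Gata4, Sox17, Foxa2 and Afp were called lower and Col1a1 higher. Against Tet3+/+ only Thy1 of these was called, higher in Tet3m/m. Of 5 primitive streak and mesoderm markers, Mesp1 was missing and T, Mixl1, Tbx6 and Hand1 were present. Day 3 sums of these 4 were 273 to 385 in Tet3+/+, 332 to 404 in Tet3m/m and 266 to 436 in Tet3-/- samples, with 0 called. In bulk samples such as these, fewer cells of a type and less RNA per cell cannot be told apart.

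Receptor binding sites were sought first in the DNA itself. RA receptors bind direct repeats of a 6-base half-site, classically with 5 bases between the copies (DR5). Windows from 250 bases before to 50 bases after the start of each gene, taken from RefSeq (GRCm38.p6), were searched on both strands for pairs in which each copy was the consensus half-site AGGTCA or a variant of it. The variants allowed were the half-site AGTTCA, which is present in both genes shown here, the half-site GGGTCA, and lastly the half-site GGTTCA. A DR5 was present in 32 of 32851 windows (0.0974%), and 2 of the 8 members with a window, Rarb and Cyp26a1, held one. The first count is of windows and the second of genes, and the variants allowed include the half-sites of both repeats shown. These counts are therefore not read against each other. Spacings of 1 and 2 bases occurred in 73 (0.222%) and 88 (0.268%) windows and in 0 of the 8 members. Crabp2 had no window in the table. The sequences of the 250 bases before the start are shown for Rarb and Cyp26a1 because these are the members with a DR5, whose half-sites are in capitals. Both are given 5′ to 3′ on the strand of the gene.

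Rarb promoter, chr14:16575477-16575726, minus strand (GRCm38.p6): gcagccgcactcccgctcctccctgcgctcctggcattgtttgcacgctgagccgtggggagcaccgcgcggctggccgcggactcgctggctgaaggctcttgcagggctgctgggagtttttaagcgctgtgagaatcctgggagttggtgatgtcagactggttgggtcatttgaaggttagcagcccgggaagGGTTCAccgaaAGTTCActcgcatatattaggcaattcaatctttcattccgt
Cyp26a1 promoter, chr19:37697558-37697807, plus strand (GRCm38.p6): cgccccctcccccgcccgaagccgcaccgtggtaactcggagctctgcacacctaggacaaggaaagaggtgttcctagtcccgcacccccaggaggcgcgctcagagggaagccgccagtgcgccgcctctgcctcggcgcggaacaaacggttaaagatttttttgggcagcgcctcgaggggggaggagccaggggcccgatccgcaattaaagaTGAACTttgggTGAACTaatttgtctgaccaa

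In Rarb, whose protein is an RA receptor induced by RA, the repeat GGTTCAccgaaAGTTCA ended 37 bases before the start and ran in the direction of the gene. In Cyp26a1, which encodes the main RA-inducible RA hydroxylase of the early embryo, the repeat ended 16 bases before the start and lay on the opposite strand, where it reads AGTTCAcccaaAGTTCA. A match is a string of letters, not a measured binding site, and the absence of a match says only that these letters are not in the window.

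To compare levels between genes, the day 3 Tet3+/+ normalized counts were divided by the summed exon length of each gene. Crabp2 (mean 5683 per kb, range 4792 to 6147, n = 3) and Cyp26a1 (4728 per kb, 4172 to 5413) stood highest and overlapped. Crabp1 followed, with a mean of 3071 per kb and a range of 2635 to 3660. Below these came Cyp26b1 (1611 per kb, 1251 to 1819) and Dhrs3 (1346 per kb, 1280 to 1384), which also overlapped. The receptors and Stra6 were lowest, with Rara at 819 per kb (776 to 869), Rarg at 746 per kb (691 to 815), Stra6 at 721 per kb (648 to 765) and Rarb at 466 per kb (402 to 530). Rara overlapped with Rarg, and Rarg with Stra6, whereas Rarb lay below all other members.

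**Figure D1:**
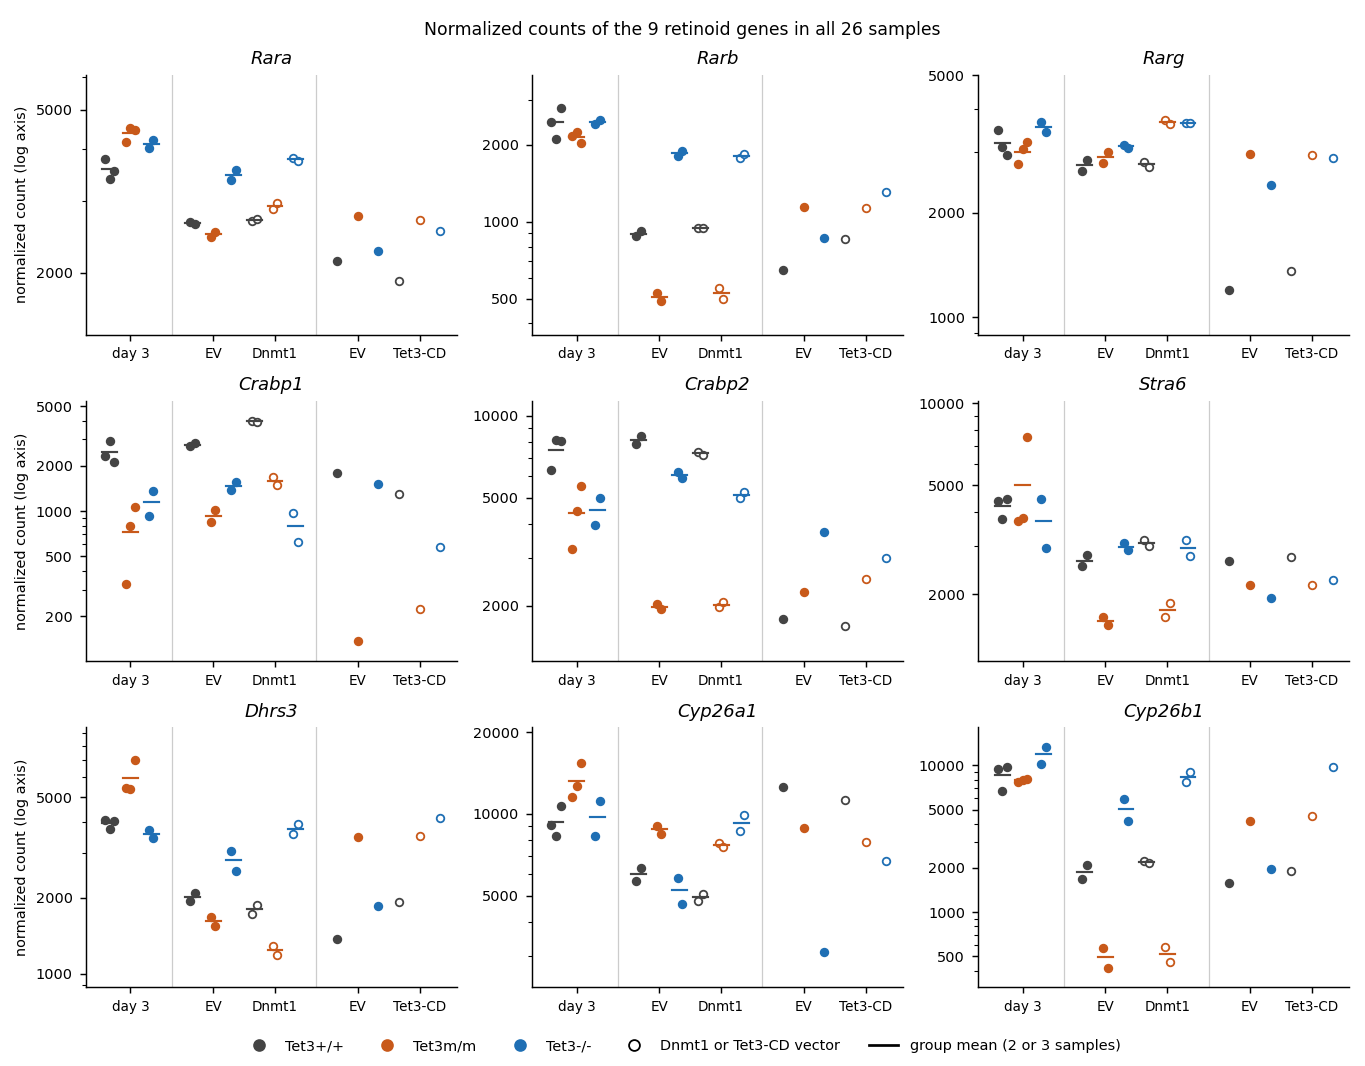
Normalized counts of the 9 genes (log axis) in each of the 26 samples, by experiment, genotype and vector, with 1 point per sample and lines at the means of groups with 2 or 3 samples. Within the day 3 samples Crabp1 is highest in Tet3+/+ (2113 to 2935), and within the Tet3-CD experiment it is lowest in the Tet3m/m EV sample (136).

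On day 3, the RA carriers were lower and the retinaldehyde reductase higher in the catalytic mutant. Crabp1, Crabp2 and Dhrs3 were called between Tet3m/m and Tet3+/+ cells, that is, had a limma adjusted p under 0.05 and a fold above 1.5. These 3 of 9 genes compare with 10.2% of all 17915 genes tested. The median log2 fold change of the 9 was -0.08, beside 0.00081 for all genes. In Tet3-/- against Tet3+/+ cells 0 of 9 were called by limma (0.642% of all genes), and 4 of 9 had an unadjusted p under 0.05. The share of all genes at that unadjusted p is not given here, so the 4 of 9 has no background to be read against. In that comparison edgeR called 0 of 9 and DESeq2 called 1, Crabp2. Between Tet3-/- and Tet3m/m cells 1 of 9 was called, Dhrs3 (9.73% of all genes).

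Among the receptors, Rara, a receptor that most embryonic tissues express, had day 3 normalized counts of 3791, 3388 and 3539 in Tet3+/+, 4171, 4513 and 4448 in Tet3m/m and 4032 and 4216 in Tet3-/- cells. All Tet3m/m and Tet3-/- samples lay above all Tet3+/+ samples. The log2 difference from Tet3+/+ was 0.29 ± 0.08 (SE, 95% interval 0.11 to 0.48, limma adjusted p = 0.0417) for Tet3m/m, which is under 1.5-fold, and 0.21 ± 0.09 (SE, limma adjusted p = 0.247) for Tet3-/-. Rarb had 2448, 2116 and 2791 in Tet3+/+, 2156, 2244 and 2024 in Tet3m/m and 2409 and 2506 in Tet3-/- cells. The groups overlapped, and the difference of Tet3m/m from Tet3+/+ was -0.19 ± 0.11 (SE, limma adjusted p = 0.3). Rarg, the remaining receptor of the family, had 3474, 3113 and 2945 in Tet3+/+, 2772, 3057 and 3199 in Tet3m/m and 3659 and 3422 in Tet3-/- cells. Both mutants overlapped with Tet3+/+, with log2 differences of -0.08 ± 0.10 (SE, limma adjusted p = 0.648) for Tet3m/m and 0.16 ± 0.11 (SE, limma adjusted p = 0.439) for Tet3-/-.

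Crabp1, a cytoplasmic RA carrier linked to RA breakdown, had day 3 normalized counts of 2339, 2935 and 2113 in Tet3+/+, 327, 802 and 1058 in Tet3m/m and 933 and 1362 in Tet3-/- cells. Every Tet3m/m and Tet3-/- sample lay below every Tet3+/+ sample. Crabp1 fell in Tet3m/m cells, with a log2 difference of -1.90 ± 0.35 (SE, 95% interval -2.68 to -1.13, limma adjusted p = 0.00585). For Tet3-/- the difference was -1.11 ± 0.39 (SE, 95% interval -1.98 to -0.25, limma adjusted p = 0.152), which missed the threshold, and Tet3-/- differed from Tet3m/m by 0.79 ± 0.39 (SE, limma adjusted p = 0.218).

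Crabp2, which carries RA to the receptors in the nucleus, had day 3 normalized counts of 6335, 8126 and 8080.0 in Tet3+/+, 3233, 4467 and 5528 in Tet3m/m and 3984 and 5003 in Tet3-/- cells. The Tet3+/+ samples were again the highest 3, without overlap. In Tet3m/m cells it fell, with a log2 difference of -0.79 ± 0.18 (SE, 95% interval -1.20 to -0.39, limma adjusted p = 0.016). In Tet3-/- cells the difference was -0.74 ± 0.20 (SE, 95% interval -1.19 to -0.29, limma adjusted p = 0.0854), which did not pass the threshold. Without Tet3+/+ replicate 2 the only member called for Tet3m/m was Crabp1, so the count fell from 3 to 1. Crabp2 then had a log2 difference of -0.73 (limma adjusted p = 0.0643). Crabp2 was also lost without Tet3+/+ replicate 3 (limma adjusted p = 0.0685). In Tet3-/- against Tet3+/+, Crabp1 and Crabp2 were called without Tet3m/m replicate 1 (limma adjusted p = 0.0179 and 0.0228) and Crabp2 without Tet3m/m replicate 3 (limma adjusted p = 0.0358), the 3 genotypes sharing one estimate of the spread.

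Stra6, the cell-surface channel for retinol, had normalized counts of 4377, 3778 and 4459 in Tet3+/+, 3718, 3805 and 7551 in Tet3m/m and 4456 and 2945 in Tet3-/- cells. Replicate 3 of Tet3m/m stood far above the rest, and the log2 difference from Tet3+/+ was 0.18 ± 0.25 (SE, limma adjusted p = 0.686). The same sample had the highest summed level of the 4 pluripotency markers (Pou5f1, Nanog, Zfp42 and Esrrb), with day 3 sums of 3244 to 5483 in Tet3+/+, 3807 to 11282 in Tet3m/m and 2369 to 5244 in Tet3-/- samples, and the part of this in the Stra6 value was not tested. Dhrs3, which turns retinaldehyde back into retinol and so lowers RA synthesis, had 4051, 3745 and 4025 in Tet3+/+, 5449, 5398 and 7014 in Tet3m/m and 3722 and 3437 in Tet3-/- cells. The Tet3m/m samples were the highest 3 and the Tet3-/- samples the lowest pair. Dhrs3 rose in Tet3m/m cells by 0.59 ± 0.11 (SE, 95% interval 0.34 to 0.83, limma adjusted p = 0.0067) on the log2 scale, which is at the edge of 1.5-fold, and with a pseudocount of 5 it was under it (0.5849). The 100 tested genes nearest to Dhrs3 on chromosome 4 had a median log2 difference of 0.58 in the same comparison. Dhrs3 was lower in Tet3-/- than in Tet3m/m cells, with a log2 difference of -0.72 ± 0.12 (SE, limma adjusted p = 0.0049). Without Tet3m/m replicate 3, which had the highest Dhrs3 value, the rise was 0.46 and under 1.5-fold, and without Tet3+/+ replicate 2 it was 0.55.

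Cyp26a1 had day 3 normalized counts of 9119, 8273 and 10733 in Tet3+/+, 11538, 12661 and 15454 in Tet3m/m and 8312 and 11182 in Tet3-/- cells. All Tet3m/m samples lay above all Tet3+/+ samples, and the Tet3-/- pair overlapped with Tet3+/+. The difference of Tet3m/m from Tet3+/+ was 0.49 ± 0.15 (SE, 95% interval 0.17 to 0.82, limma adjusted p = 0.0479), under 1.5-fold, and that of Tet3-/- was 0.05 ± 0.16 (SE, limma adjusted p = 0.896). Cyp26b1, the CYP26 enzyme of the hindbrain and limb among other tissues, had 9437, 6695 and 9737 in Tet3+/+, 7674, 7995 and 8106 in Tet3m/m and 10272 and 13427 in Tet3-/- cells. The Tet3-/- samples were the highest pair, and the Tet3m/m samples lay inside the range of Tet3+/+. Tet3-/- cells differed from Tet3m/m cells by 0.57 ± 0.16 (SE, 95% interval 0.21 to 0.93, limma adjusted p = 0.0469), just under 1.5-fold, and from Tet3+/+ cells by 0.47 ± 0.16 (SE, limma adjusted p = 0.151). Without Tet3-/- replicate 1 the first of these was 0.76 and called (limma adjusted p = 0.0432), which made 2 members called between the mutants, and without Tet3m/m replicate 1 the Cyp26a1 difference of Tet3m/m passed 1.5-fold (0.59, limma adjusted p = 0.0346).

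**Figure D2:**
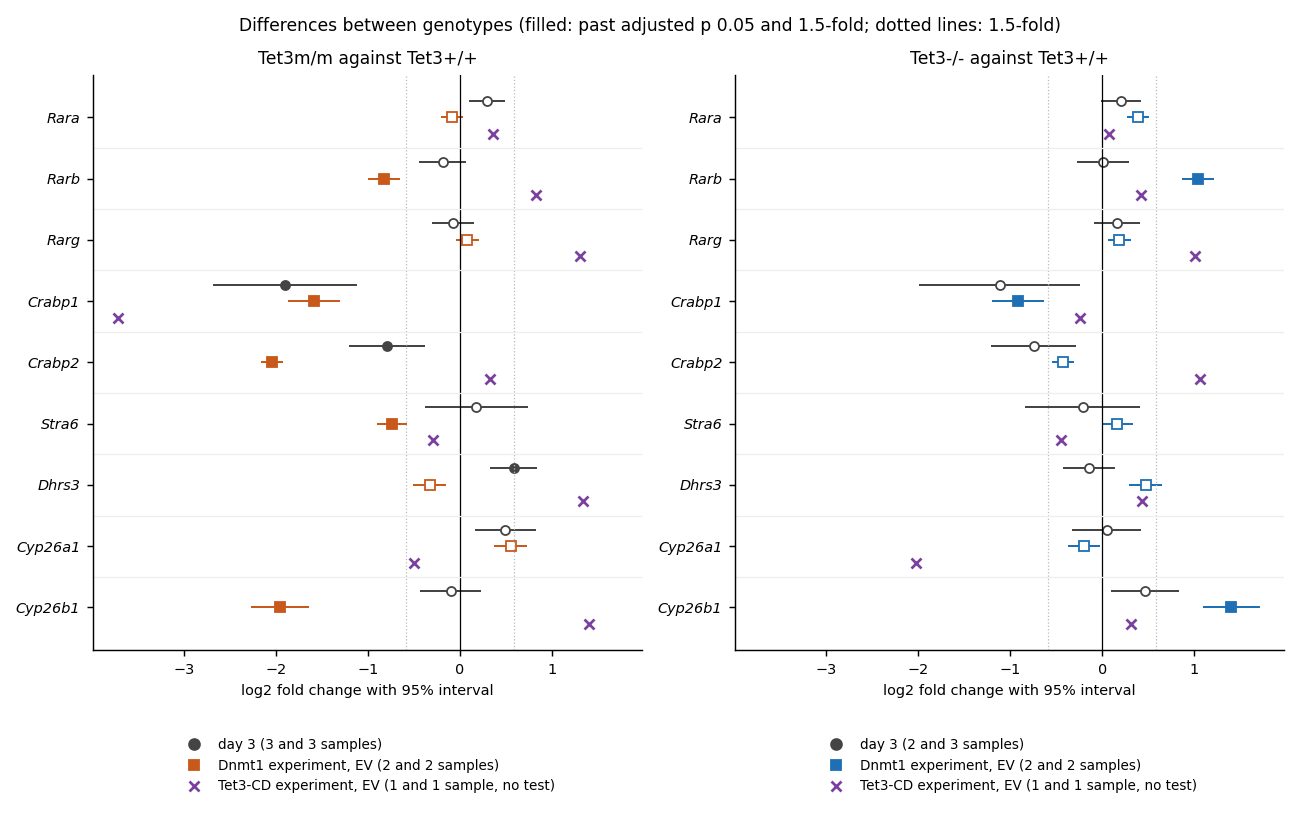
Log2 fold changes of the 9 genes for Tet3m/m and Tet3-/- against Tet3+/+ cells on day 3 and with EV in the Dnmt1 experiment (limma estimates with 95% intervals, filled where called), and log2 ratios with EV in the Tet3-CD experiment (crosses, 1 sample per group, no error). Crabp1 lies at -1.90 and -1.58 for Tet3m/m, while Cyp26b1 lies at -0.10 on day 3, -1.95 with the EV of the Dnmt1 set and 1.40 with that of the Tet3-CD set.

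In the Dnmt1 experiment with EV, Rarb, Crabp1, Crabp2, Stra6 and Cyp26b1 were lower in Tet3m/m than in Tet3+/+ cells. In Tet3-/- cells Crabp1 was lower, whereas Rarb and Cyp26b1 were higher. These are 5 of 9 genes called for Tet3m/m (21.2% of all 18055 genes tested) and 3 of 9 for Tet3-/- (24.9% of all genes), with median log2 fold changes of -0.73 and 0.19 over the 9 beside 0.01 and 0.0034 over all genes. Between Tet3-/- and Tet3m/m cells 7 of 9 were called (39.6% of all genes). The 2 comparisons with Tet3+/+ share the same Tet3+/+ samples.

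Cell type markers moved with genotype in these samples. The summed normalized counts of the 4 pluripotency markers with EV were 16430.0 to 16482 in Tet3+/+, 43731 to 44302 in Tet3m/m and 2282 to 2387 in Tet3-/- samples. Those of 6 endoderm markers (Gata4, Gata6, Sox17, Foxa2, Afp and Dab2) were 16853 to 17252, 42455 to 44283 and 9599 to 10050.0. The 5 NE markers summed to 8255 to 8460.3, 2084 to 2309 and 14334 to 14899, and 5 fibroblast markers (Col1a1, Col1a2, Thy1, Postn and Dcn), which feeder cells express, to 14973 to 16512, 2810.3 to 3036 and 27392 to 27681. Against Tet3+/+, all 4 pluripotency and all 6 endoderm markers were called higher in Tet3m/m cells, and 4 of 5 NE and 4 of 5 fibroblast markers lower. For Tet3-/- all 4 pluripotency markers were called lower, and of the endoderm markers 4 lower and 1 higher. The NE and fibroblast markers of Tet3-/- cells went both ways, with Nes, Zic1, Col1a1 and Postn called higher and Sox1 and Thy1 lower, at medians of 0.16 and 0.11. The 4 primitive streak and mesoderm markers summed to 776 to 821 in Tet3+/+, 255 to 294 in Tet3m/m and 329 to 438 in Tet3-/- samples. Of these, Mixl1 and Hand1 were called in Tet3m/m against Tet3+/+ cells, 1 higher and 1 lower. The part of these differences in the results on the 9 genes was not tested.

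Rarb had normalized counts with EV of 878 and 917 in Tet3+/+, 526 and 488 in Tet3m/m and 1808 and 1893 in Tet3-/- cells. The 3 genotypes did not overlap, with Tet3m/m lowest and Tet3-/- highest. The log2 differences from Tet3+/+ were -0.82 ± 0.08 (SE, 95% interval -0.99 to -0.66, limma adjusted p = 1.97e-08) for Tet3m/m and 1.04 ± 0.08 (SE, 95% interval 0.88 to 1.21, limma adjusted p = 5.6e-10) for Tet3-/-. Rara had 2656 and 2628 in Tet3+/+, 2447 and 2520.0 in Tet3m/m and 3362 and 3563 in Tet3-/- cells, with Tet3-/- above the rest by 0.39 ± 0.05 (SE, limma adjusted p = 2.35e-06) against Tet3+/+, under 1.5-fold. Rarg had 2648 and 2846 in Tet3+/+, 2794 and 3008 in Tet3m/m and 3155 and 3088 in Tet3-/- cells. Its difference of Tet3-/- from Tet3+/+ was 0.19 ± 0.06 (SE, limma adjusted p = 0.00799), and that of Tet3m/m was 0.08 ± 0.06 (SE, limma adjusted p = 0.272).

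Crabp1 had normalized counts with EV of 2722 and 2819 in Tet3+/+, 844 and 1013 in Tet3m/m and 1382 and 1566 in Tet3-/- cells. Tet3+/+ samples were the highest and Tet3m/m samples the lowest, without overlap. The log2 differences were -1.58 ± 0.13 (SE, 95% interval -1.85 to -1.31, limma adjusted p = 1.79e-09) in Tet3m/m and -0.91 ± 0.13 (SE, 95% interval -1.19 to -0.64, limma adjusted p = 5.15e-06) in Tet3-/- cells. Tet3-/- lay above Tet3m/m by 0.67 ± 0.13 (SE, limma adjusted p = 0.000128), a call lost without EV Tet3m/m replicate 1 (0.54) or EV Tet3-/- replicate 2 (0.58). Crabp2 had 7892 and 8405 in Tet3+/+, 2023 and 1946 in Tet3m/m and 6208 and 5911 in Tet3-/- cells, also without overlap. Its log2 differences were -2.04 ± 0.05 (SE, 95% interval -2.15 to -1.93, limma adjusted p = 7.34e-18) for Tet3m/m and -0.43 ± 0.05 (SE, 95% interval -0.54 to -0.32, limma adjusted p = 5.94e-07) for Tet3-/-, the latter under 1.5-fold.

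Stra6 had normalized counts with EV of 2528 and 2783 in Tet3+/+, 1654 and 1537 in Tet3m/m and 3066 and 2890.4 in Tet3-/- cells. Tet3m/m samples were the lowest, with a log2 difference of -0.73 ± 0.07 (SE, 95% interval -0.89 to -0.58, limma adjusted p = 3.53e-08), and Tet3-/- samples differed from Tet3+/+ by 0.17 ± 0.07 (SE, limma adjusted p = 0.0632). Dhrs3 had 1942 and 2091 in Tet3+/+, 1672 and 1545 in Tet3m/m and 3072 and 2546 in Tet3-/- cells, the reverse of its day 3 order for Tet3m/m and Tet3-/- cells. Its differences from Tet3+/+ were -0.33 ± 0.08 (SE, limma adjusted p = 0.00206) for Tet3m/m and 0.47 ± 0.08 (SE, limma adjusted p = 4.28e-05) for Tet3-/-, both under 1.5-fold, and Tet3-/- lay above Tet3m/m by 0.80 ± 0.08 (SE, 95% interval 0.63 to 0.97, limma adjusted p = 1.69e-08). The Tet3-/- difference from Tet3+/+ passed 1.5-fold without EV Tet3-/- replicate 2 (0.61, limma adjusted p = 1.23e-05). The change between the day 3 and the Dnmt1 experiment was not tested, because their tables were normalized separately.

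Cyp26a1 had normalized counts with EV of 5657 and 6335 in Tet3+/+, 9066 and 8469 in Tet3m/m and 5809.6 and 4675 in Tet3-/- cells. Tet3m/m samples were the highest, above Tet3+/+ by 0.55 ± 0.08 (SE, 95% interval 0.39 to 0.71, limma adjusted p = 5.71e-06), just under 1.5-fold, and above Tet3-/- past it, the log2 difference of Tet3-/- from Tet3m/m being -0.75 ± 0.08 (SE, limma adjusted p = 3.35e-08). The first difference passed 1.5-fold without EV Tet3m/m replicate 2 (0.60) or without one of the Tet3+/+ EV samples (0.63). Cyp26b1 had the widest ratio of highest to lowest EV value of the 9 genes, with 1689 and 2083 in Tet3+/+, 568 and 414 in Tet3m/m and 5919 and 4169.6 in Tet3-/- cells. The genotypes were fully apart, with Tet3m/m lowest and Tet3-/- highest. The log2 differences from Tet3+/+ were -1.95 ± 0.15 (SE, 95% interval -2.25 to -1.65, limma adjusted p = 3.49e-10) for Tet3m/m and 1.40 ± 0.15 (SE, limma adjusted p = 5.91e-08) for Tet3-/-. Between Tet3-/- and Tet3m/m cells the difference reached 3.35 ± 0.15 (SE, 95% interval 3.05 to 3.66, limma adjusted p = 1.29e-14).

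With the Dnmt1 vector, the same test between genotypes called 6 of 9 genes for Tet3m/m (20.2% of all genes) and 5 of 9 for Tet3-/- (24.9% of all genes). For Tet3m/m these were Rarb, Crabp1, Crabp2, Stra6 and Cyp26b1, which were lower, and Cyp26a1, which was higher by 0.64 ± 0.08 (SE, limma adjusted p = 8.04e-07). Dhrs3 joined them without Dnmt1-vector Tet3+/+ replicate 1 (-0.59) or Dnmt1-vector Tet3m/m replicate 1 (-0.60). For Tet3-/- they were Crabp1, lower with a log2 difference of -2.35 ± 0.13 (SE, limma adjusted p = 3.82e-12), and Rarb, Dhrs3, Cyp26a1 and Cyp26b1, which were higher. Cyp26b1 reached normalized counts of 7643 and 9031 in Tet3-/- and 581 and 457 in Tet3m/m samples.

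Cyp26b1 lies on chromosome 6, the chromosome of the edited Tet3 gene, with 11 tested genes between them in the GENCODE M21 annotation (GRCm38). For each comparison its log2 difference was set beside the median of its 100 nearest tested neighbours, 50 on each side, which include Tet3. In Tet3m/m cells the neighbours were lower than in Tet3+/+ cells in every experiment, with medians of -0.83 on day 3 (quartiles -1.06 to -0.41), -0.67 with EV in the Dnmt1 experiment (-0.92 to -0.26) and -0.67 with EV in the Tet3-CD experiment (-1.06 to -0.18). Cyp26b1 itself was at -0.10, -1.95 and 1.40, so it lay above the quartiles of its neighbours on day 3 and in the Tet3-CD experiment and below them in the Dnmt1 experiment. In Tet3-/- cells the neighbour medians were -0.02, 0.15 and 0.02, while Cyp26b1 was at 0.47, 1.40 and 0.31. These are descriptions, and neighbours are not independent replicates. The part of the chromosome 6 neighbourhood in the Cyp26b1 values was not tested.

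The neighbours of the 3 genes called in Tet3m/m cells on day 3 were described in the same way. Around Dhrs3, on chromosome 4, the 100 neighbours had a median log2 difference of 0.58 (quartiles -0.08 to 1.56), and the 0.59 of Dhrs3 lay close to that median. With EV in Tet3m/m cells their median was 0.40 in the Dnmt1 and 0.86 in the Tet3-CD experiment, while Dhrs3 was at -0.33 and 1.34. Their median in Tet3-/- cells of the Dnmt1 experiment with EV was -0.78, and Dhrs3 was at 0.47. For the carriers, the day 3 medians of the neighbours were 0.07 for Crabp1 on chromosome 9 (quartiles -0.21 to 0.30) and 0.03 for Crabp2 on chromosome 3 (quartiles -0.18 to 0.24), and both carriers lay below those quartiles. The part of each neighbourhood in these values was not tested.

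**Figure D3:**
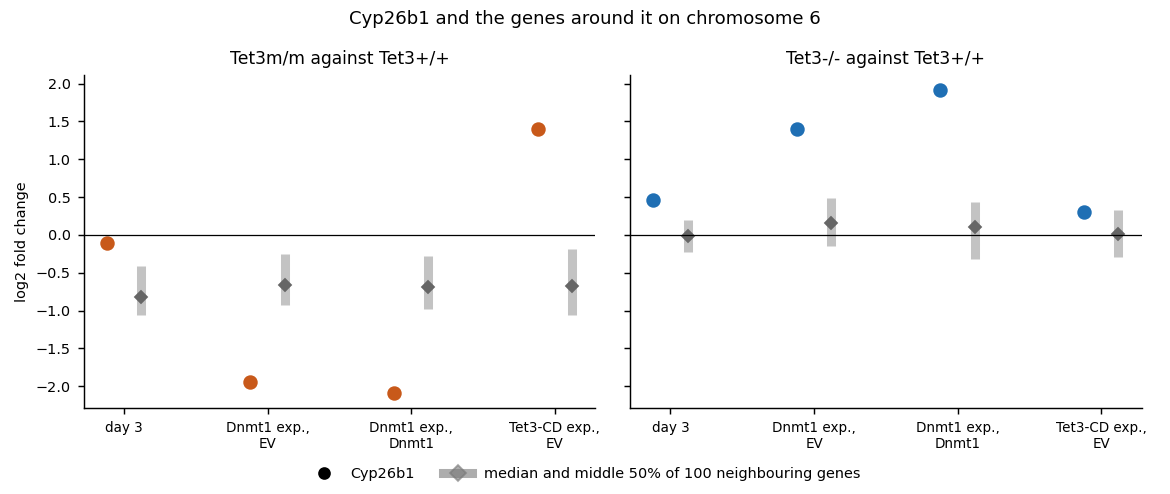
Log2 differences of Cyp26b1 and of its 100 nearest tested neighbours on chromosome 6 between each mutant and Tet3+/+ cells, by experiment. Bars span the quartiles of the neighbours with diamonds at their medians, which for Tet3m/m run from -0.83 to -0.67, while Cyp26b1 runs from -2.09 to 1.40.

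The Dnmt1 vector was compared with EV within each genotype to measure what changed when Dnmt1 was raised. Dnmt1 itself rose unequally, by log2 changes of 0.64 ± 0.07 (SE) in Tet3+/+, 0.90 ± 0.07 (SE) in Tet3m/m and 1.06 ± 0.07 (SE) in Tet3-/- cells. The rise in Tet3-/- cells exceeded that in Tet3+/+ cells by 0.42 ± 0.09 (SE, limma adjusted p = 0.00502). The part of this in differences between the responses of the genotypes was not tested. In Tet3-/- cells Cyp26a1 and Cyp26b1 rose and Crabp1 fell, and in Tet3m/m cells Crabp1 rose. In Tet3+/+ cells 0 of 9 genes were called by limma, edgeR or DESeq2 (1.17% of all genes by limma). An unadjusted p under 0.05 was found for 4 of 9, and the share of all genes at that p is not given here. In Tet3m/m cells 1 of 9 was called (2.46% of all genes) and in Tet3-/- cells 3 of 9 (3.53% of all genes). The median log2 fold changes of the 9 were 0.02, 0.09 and 0.13 in the order of these genotypes, beside 0.0016, -0.0015 and 0.01 over all genes.

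Cyp26a1 had normalized counts with the Dnmt1 vector of 4792 and 5072 in Tet3+/+, 7824 and 7538 in Tet3m/m and 8634 and 9887 in Tet3-/- cells. Both Tet3-/- samples lay above both of their EV samples (5809.6 and 4675), whereas the Tet3+/+ and Tet3m/m samples lay below theirs. The log2 changes were 0.83 ± 0.08 (SE, 95% interval 0.66 to 0.99, limma adjusted p = 7.87e-07) in Tet3-/-, -0.28 ± 0.08 (SE, limma adjusted p = 0.0414) in Tet3+/+ and -0.19 ± 0.08 (SE, limma adjusted p = 0.142) in Tet3m/m cells. The change in Tet3-/- cells differed from that in Tet3+/+ cells by 1.11 ± 0.11 (SE, 95% interval 0.87 to 1.34, limma adjusted p = 1.81e-06). Cyp26b1 had 2225 and 2167 in Tet3+/+, 581 and 457 in Tet3m/m and 7643 and 9031 in Tet3-/- cells with the Dnmt1 vector, and in Tet3-/- samples it moved past 1.5-fold, by 0.74 ± 0.15 (SE, 95% interval 0.44 to 1.05, limma adjusted p = 0.00152). Its change in Tet3-/- cells was not shown to differ from that in Tet3+/+ cells, the difference being 0.51 ± 0.21 (SE, 95% interval 0.09 to 0.94, limma adjusted p = 0.129). The Cyp26b1 rise was lost without EV Tet3-/- replicate 2, at 0.49 (limma adjusted p = 0.0698), while the difference of the changes passed without EV Tet3-/- replicate 1, at 0.77 (limma adjusted p = 0.0256), or without Dnmt1-vector Tet3-/- replicate 1, at 0.63 (limma adjusted p = 0.0455).

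Crabp1 had normalized counts with the Dnmt1 vector of 4005 and 3921 in Tet3+/+, 1698 and 1493 in Tet3m/m and 972 and 622 in Tet3-/- cells. Compared with EV, the Tet3+/+ and Tet3m/m samples were higher and the Tet3-/- samples lower, in each case without overlap. The log2 changes were 0.52 ± 0.13 (SE, limma adjusted p = 0.0227) in Tet3+/+, under 1.5-fold, 0.78 ± 0.13 (SE, 95% interval 0.51 to 1.06, limma adjusted p = 0.000377) in Tet3m/m and -0.92 ± 0.13 (SE, 95% interval -1.19 to -0.65, limma adjusted p = 6.77e-05) in Tet3-/- cells. The change in Tet3-/- cells differed from that in Tet3+/+ cells by -1.44 ± 0.18 (SE, 95% interval -1.82 to -1.05, limma adjusted p = 3.55e-05). Crabp2 had 7385 and 7206 in Tet3+/+, 1973 and 2059 in Tet3m/m and 4966 and 5228 in Tet3-/- cells, and its change in Tet3-/- cells was -0.25 ± 0.05 (SE, limma adjusted p = 0.00249).

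Dhrs3 had normalized counts with the Dnmt1 vector of 1728 and 1867 in Tet3+/+, 1289 and 1189 in Tet3m/m and 3586 and 3916 in Tet3-/- cells. Against EV, both Tet3-/- samples were higher and both Tet3m/m samples lower, by 0.42 ± 0.08 (SE, limma adjusted p = 0.00119) and -0.38 ± 0.08 (SE, limma adjusted p = 0.00375), each under 1.5-fold. The change in Tet3-/- cells differed from that in Tet3+/+ cells by 0.59 ± 0.11 (SE, 95% interval 0.35 to 0.83, limma adjusted p = 0.00208), which is just past 1.5-fold and was not called by DESeq2 (0.58) or without EV Tet3-/- replicate 2 (0.45), Dnmt1-vector Tet3+/+ replicate 1 (0.53), Dnmt1-vector Tet3-/- replicate 2 (0.52) or one of the Tet3+/+ EV samples (0.54). Stra6 had 3155 and 3013 in Tet3+/+, 1656 and 1856 in Tet3m/m and 3153 and 2749 in Tet3-/- cells, with no change of 1.5-fold in any genotype. The differences in Dnmt1 response between Tet3-/- and Tet3+/+ cells were called for 3 of 9 genes (3.99% of all genes), and those between Tet3m/m and Tet3+/+ cells for 0 of 9 by limma, edgeR and DESeq2 (0.604% of all genes by limma). In the latter 3 of 9 were at an unadjusted p under 0.05, and the share of all genes at that p is not given here.

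Of the receptors, Rarg had normalized counts with the Dnmt1 vector of 2816 and 2713 in Tet3+/+, 3727 and 3609 in Tet3m/m and 3646 and 3638 in Tet3-/- cells. Its change from EV was 0.34 ± 0.06 (SE, limma adjusted p = 0.000324) in Tet3m/m cells and, in Tet3-/- cells, 0.22 ± 0.06 (SE, limma adjusted p = 0.00991), each without overlap and under 1.5-fold. Rara had 2675 and 2699.6 in Tet3+/+, 2859 and 2955 in Tet3m/m and 3809 and 3756 in Tet3-/- cells and differed from EV by 0.23 ± 0.05 (SE, limma adjusted p = 0.00704) in Tet3m/m cells. Rarb had 943 and 949 in Tet3+/+, 551 and 498 in Tet3m/m and 1776 and 1837 in Tet3-/- cells, and its intervals in the 3 genotypes lay within -0.20 to 0.24. Pluripotency marker sums with the Dnmt1 vector were 17779 to 17854 in Tet3+/+, 48772 to 50220.0 in Tet3m/m and 3837 to 3932 in Tet3-/- samples, each above its EV sums, and all 4 were called higher in Tet3-/- cells. The NE markers had median log2 changes from EV of 0.50 in Tet3+/+, 0.49 in Tet3m/m and -0.37 in Tet3-/- cells. Zic1 was called higher in Tet3+/+ cells and Nes and Zic1 in Tet3m/m cells, while in Tet3-/- cells each of the 5 differed by less than 1.5-fold. Of the 5 fibroblast markers, Col1a2, Postn and Dcn were called higher in Tet3m/m cells, and Col1a2 and Dcn lower in Tet3-/- cells. The part of these shifts in the changes of the 9 genes was not tested.

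**Figure D4:**
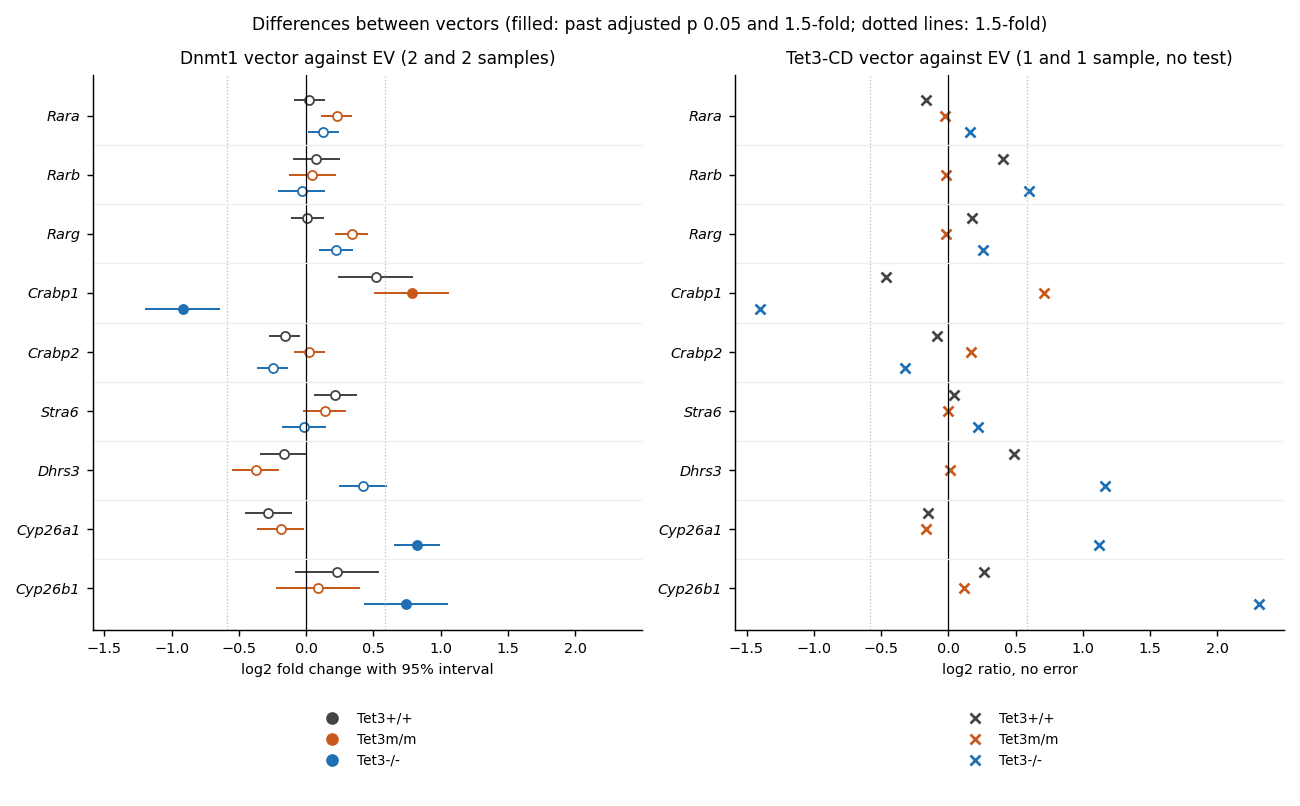
Log2 changes of the 9 genes with the Dnmt1 vector against EV (limma estimates with 95% intervals, filled where called) and with Tet3-CD against EV (1 sample per group, crosses with no error) in each genotype. For Tet3-/- cells, Cyp26a1 lies at 0.83 and 1.12, and Crabp1 at -0.92 and -1.40.

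The Tet3-CD experiment put the catalytic domain back into mutant cells. It has 1 sample per genotype and vector, so the values below have no replicate check and no test. In Tet3-/- cells Cyp26b1, Dhrs3, Cyp26a1 and Rarb were higher and Crabp1 lower with Tet3-CD, and in Tet3m/m cells Crabp1 was higher. Past 1.5-fold were 5 of 9 genes in Tet3-/- (21.5% of all 17481 genes), 1 of 9 in Tet3m/m (10.1% of all genes) and 0 of 9 in Tet3+/+ cells (13.4% of all genes). Normalized counts of Tet3 went from 1849.9 to 5232 in the Tet3m/m pair, against 2069.8 to 2759 in the Tet3-/- and 4755 to 5441 in the Tet3+/+ pair. The count of the whole gene does not separate the vector from the edited gene.

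Cyp26b1 had normalized counts of 1584 with EV and 1903 with Tet3-CD in Tet3+/+, 4194 and 4539 in Tet3m/m, and 1962 and 9742 in Tet3-/- cells. The Tet3-/- sample with Tet3-CD was the highest of the 6, at a log2 ratio of 2.31 to its EV sample. Cyp26a1 had 12575 with EV and 11302 with Tet3-CD in Tet3+/+, 8884 and 7913 in Tet3m/m, and 3094 and 6718 in Tet3-/- cells, with a log2 ratio of 1.12 in Tet3-/- cells. The Tet3-/- EV sample was the lowest of the 6 for Cyp26a1, and the Tet3+/+ samples were the highest. Dhrs3 had 1368 with EV and 1918 with Tet3-CD in Tet3+/+, 3466 and 3503 in Tet3m/m, and 1844 and 4132 in Tet3-/- cells, with a log2 ratio of 1.16 in Tet3-/- and 0.49 in Tet3+/+ cells.

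Crabp1 had normalized counts of 1797 with EV and 1301 with Tet3-CD in Tet3+/+, 136 and 224 in Tet3m/m, and 1519.5 and 575 in Tet3-/- cells. Both Tet3m/m samples were far below the others, and the log2 ratios of Tet3-CD to EV were -0.47, 0.71 and -1.40 in Tet3+/+, Tet3m/m and Tet3-/- cells. Crabp2 had 1793 with EV and 1692 with Tet3-CD in Tet3+/+, 2240.0 and 2516 in Tet3m/m, and 3747 and 2999 in Tet3-/- cells, so the Tet3-/- pair was highest here. Rarb had 645 with EV and 854 with Tet3-CD in Tet3+/+, 1145 and 1132 in Tet3m/m, and 864 and 1309 in Tet3-/- cells, with a log2 ratio of 0.60 in Tet3-/- cells. Rarg had 1201 with EV and 1358 with Tet3-CD in Tet3+/+, 2965 and 2935 in Tet3m/m, and 2417 and 2893 in Tet3-/- cells, and the Tet3+/+ samples were the lowest. Rara ranged from 1905 to 2746 and Stra6 from 1944 to 2728 over the 6 samples.

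Against Tet3+/+ with EV, 5 of 9 genes lay past 1.5-fold in Tet3m/m (36.3% of all genes) and 3 of 9 in Tet3-/- cells (27.1% of all genes). For Tet3m/m the log2 ratios were -3.71 for Crabp1, 1.40 for Cyp26b1, 1.34 for Dhrs3, 1.30 for Rarg and 0.83 for Rarb. For Tet3-/- they were -2.02 for Cyp26a1, 1.06 for Crabp2 and 1.01 for Rarg. The summed level of the 6 endoderm markers was 50732 in the Tet3+/+ EV sample, against 12494 in Tet3m/m and 14625 in Tet3-/-. Those of the 4 pluripotency markers were 2327, 10048 and 5680.2, and all 4 lay past 1.5-fold higher in each mutant. Between EV and Tet3-CD in Tet3-/- cells Nes went from 5042 to 12359 while Sox1 went from 279 to 163, and the 5 NE markers had a median log2 ratio of -0.41. The endoderm sum of this pair went from 14625 to 9675.1. Gata4, Sox17, Afp and Dab2 were past 1.5-fold lower, whereas Gata6 was higher at a log2 ratio of 0.44. Its pluripotency sum went from 5680.2 to 3501, with Pou5f1, Nanog and Esrrb past 1.5-fold lower. With EV the 4 primitive streak and mesoderm markers summed to 390 in Tet3+/+, 484 in Tet3m/m and 2070 in Tet3-/- cells. Hand1 was at 340 in Tet3+/+ and 2008 in Tet3-/- cells. With Tet3-CD the sum in Tet3-/- cells was 1243.5. The part of these sums in the ratios was not tested.

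Over the samples of the day 3 and Dnmt1 experiments, Cyp26c1 had the pattern most like that of Cyp26a1. It is the remaining Cyp26 gene and lies beside Cyp26a1 on chromosome 19 with 0 tested genes between. Likeness was Pearson's r of the deviations of log2 values from the mean of the experiment, over 20 samples (8 of day 3 and 12 of the Dnmt1 experiment) and 17244 genes. For Cyp26c1 r was 0.902, with 0.889 in the day 3 and 0.923 in the Dnmt1 samples. Next came H2-Bl (0.849), Mcl1 (0.845), Psmb4 (0.839) and Stk10 (0.838). For Rarb the nearest were Zswim8 (0.984), Arhgef17 (0.983), Lats2 (0.982), Kctd11 (0.981) and Ndst1 (0.981), with 0.657 to 0.894 within the day 3 samples. The points share libraries, genotypes and vectors, so the values are descriptions.

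Cyp26c1, which also degrades RA, was much less abundant, with day 3 normalized counts of 200.5, 251 and 263 in Tet3+/+, 462, 590.2 and 609 in Tet3m/m and 226 and 307 in Tet3-/- cells. All Tet3m/m samples lay above all others. It rose in Tet3m/m cells by 1.21 ± 0.19 (SE, 95% interval 0.79 to 1.63, limma adjusted p = 0.00253) and was lower in Tet3-/- than in Tet3m/m cells, at -1.06 ± 0.21 (SE, limma adjusted p = 0.0105). In the Dnmt1 experiment it had 118 and 136 in Tet3+/+, 271 and 247 in Tet3m/m and 146 and 153 in Tet3-/- cells with EV, and 103 and 98.7 in Tet3+/+, 245 and 217 in Tet3m/m and 279 and 283 in Tet3-/- cells with the Dnmt1 vector. Tet3m/m samples were highest with EV and Tet3-/- samples with the Dnmt1 vector. The change with the Dnmt1 vector in Tet3-/- cells was 0.90 ± 0.16 (SE, limma adjusted p = 0.000804), and it differed from that in Tet3+/+ cells by 1.22 ± 0.23 (SE, limma adjusted p = 0.0018). The Tet3-CD experiment was not part of the likeness. There, with EV and 1 sample per group, the log2 ratio of Tet3m/m to Tet3+/+ was 0.80 for Cyp26c1 and -0.50 for Cyp26a1. For Tet3-/- the ratios to Tet3+/+ were -1.38 and -2.02.

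**Figure D5:**
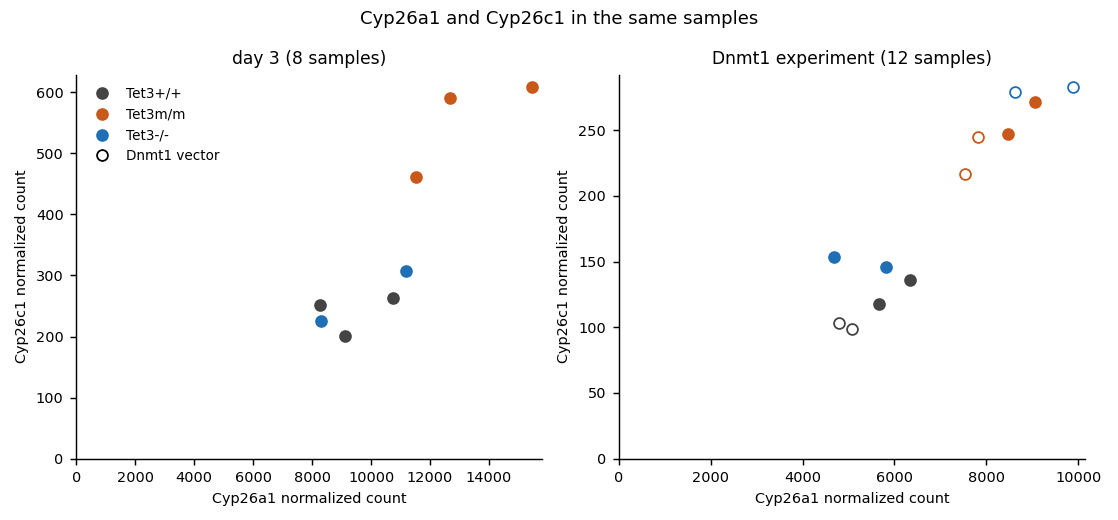
Normalized counts of Cyp26a1 (horizontal, linear axis) and Cyp26c1 (vertical, linear axis), 1 point per sample, for the 8 day 3 samples and the 12 samples of the Dnmt1 experiment, coloured by genotype with open points for the Dnmt1 vector. In the day 3 samples Tet3m/m is highest for both genes, at 11538 to 15454 for Cyp26a1 and 462 to 609 for Cyp26c1.

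The other genes of the pathway were counted from a list of 20 (retinoid X receptors, enzymes of RA synthesis, retinol handling, Cyp26c1, the alternative carrier Fabp5 with its receptor Ppard, and coregulators), of which 19 were tested. On day 3, 5 of 19 were called in Tet3m/m cells, with Rbp4 and Cyp26c1 higher and Aldh1a1, Aldh1a2 and Fabp5 lower, against 0 of 19 in Tet3-/- cells by limma, where 3 of 19 had an unadjusted p under 0.05, edgeR called 0 and DESeq2 0. The median log2 differences of the 19 were 0.01 and 0.04. With EV in the Dnmt1 experiment 7 of 19 were called in Tet3m/m (4 higher, 3 lower) and 5 of 19 in Tet3-/- cells (3 higher, 2 lower). The Dnmt1 vector called 2 of 19 in Tet3+/+, 2 in Tet3m/m and 3 in Tet3-/- cells. The background shares given above for each comparison apply to the calls, and none is given for the count at an unadjusted p.

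Aldh1a2, the main RA-synthesizing enzyme of the early embryo, had day 3 normalized counts of 1661, 1523 and 917 in Tet3+/+, 299, 406 and 470.4 in Tet3m/m and 538 and 1067 in Tet3-/- cells. Every Tet3m/m sample lay below every Tet3+/+ sample, at a log2 difference of -1.78 ± 0.29 (SE, limma adjusted p = 0.00285). With EV in the Dnmt1 experiment it had 382 and 307 in Tet3+/+, 259 and 292 in Tet3m/m and 1336 and 1383 in Tet3-/- cells, Tet3-/- being highest by 1.98 ± 0.15 (SE, limma adjusted p = 3.59e-10) against Tet3+/+. Aldh1a1, a related RA-synthesizing enzyme, had 765, 1307 and 718 in Tet3+/+, 475, 536 and 281 in Tet3m/m and 584 and 501 in Tet3-/- cells on day 3 and fell in Tet3m/m cells, at -1.11 ± 0.27 (SE, limma adjusted p = 0.0214). With EV it had 1272 and 1349 in Tet3+/+, 80.4 and 104 in Tet3m/m and 1229 and 1514 in Tet3-/- cells, so the Tet3m/m samples were again the lowest, at -3.82 ± 0.15 (SE, limma adjusted p = 4.77e-15). Both enzymes fell with the Dnmt1 vector in Tet3-/- cells, with log2 changes of -1.17 ± 0.15 (SE, limma adjusted p = 1.73e-05) for Aldh1a2 and -2.07 ± 0.15 (SE, limma adjusted p = 1.26e-08) for Aldh1a1. Rbp4, the carrier of retinol in blood, had 164, 167 and 196 in Tet3+/+, 704, 769.7 and 560.1 in Tet3m/m and 146 and 191 in Tet3-/- cells on day 3, the Tet3m/m samples standing apart at 1.93 ± 0.19 (SE, limma adjusted p = 0.000166). With EV in the Dnmt1 experiment it had 373 and 400.1 in Tet3+/+, 659 and 732 in Tet3m/m and 169 and 150.2 in Tet3-/- cells, with log2 differences from Tet3+/+ of 0.84 ± 0.16 (SE, limma adjusted p = 0.000154) for Tet3m/m and -1.27 ± 0.16 (SE, limma adjusted p = 8.15e-07) for Tet3-/-. In the Tet3-CD experiment with EV, which has no replicates, Tet3+/+ was instead the highest, with 3775 in Tet3+/+, 329 in Tet3m/m and 427 in Tet3-/- cells.

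Of 10 known RA target genes, 2 were called on day 3 in Tet3m/m cells, 1 higher and 1 lower (10.2% of all genes). Hoxb1, a hindbrain homeobox gene, had 1879, 1907 and 1744 in Tet3+/+, 3605, 3577 and 3374 in Tet3m/m and 2204 and 1573 in Tet3-/- cells. It was higher in all Tet3m/m samples, at 0.93 ± 0.12 (SE, limma adjusted p = 0.000857). Nr2f1, an orphan nuclear receptor of neural development, had 6578, 5878 and 7460.3 in Tet3+/+, 3371, 3656 and 3494 in Tet3m/m and 5439 and 5555 in Tet3-/- cells and was lower in all Tet3m/m samples, at -0.91 ± 0.10 (SE, limma adjusted p = 0.000313). With EV in the Dnmt1 experiment 5 of 10 were called in Tet3m/m cells, 1 higher and 4 lower (21.2% of all genes). In Tet3-/- cells 6 of 10 were called, 4 higher and 2 lower (24.9% of all genes). There Nr2f1 had 2389.6 and 2538 in Tet3+/+, 210.2 and 220.1 in Tet3m/m and 5576 and 5308 in Tet3-/- cells, with the lowest values in Tet3m/m samples, at -3.51 ± 0.07 (SE, limma adjusted p = 2.73e-19).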

How the data were processed

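RNA-seq of 26 samples in 3 experiments was used, and 9 samples of other assays were not analysed here. Per the study's methods and the submitters' processing notes, the authors trimmed reads (Trim Galore 0.6.7), aligned them (STAR 2.7.9a), counted them per gene (featureCounts) and normalized the counts (DESeq2). The genome build is mm39 in the methods and mm10 in the labels, and no coordinate was taken from the files. The deposited signal values are normalized counts that the authors made by dividing each sample by its size factor. All of them (100%) are whole multiples of 1 read within 0.01, so the reads were recovered, with 36594650 to 47710548 per day 3 sample, 31155842 to 50845950 per sample transfected with Dnmt1 or its EV and 33475041 to 37707719 per sample of the Tet3-CD set. Strand and handling of reads shared between similar genes are not given in the sources used here.

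Genes with a mean value of at least 10 were tested (17915, 18055 and 17481 of the 3 tables). Group means were fitted by limma 3.58.1 in R 4.3.3 to log2(value + 1) (eBayes with a trend, 1 fit per experiment over its groups), with Benjamini-Hochberg adjustment across the genes tested. A call needs an adjusted p under 0.05 and a fold above 1.5. Fold changes on this scale understate changes of low genes. The Tet3-CD samples have no replicates and were compared by log2 ratios of (value + 1). The scripts were tested on simulated data. edgeR 4.0.16 and DESeq2 1.42.0 on recovered reads, other pseudocounts and filters, TMM scaling, fits of the compared groups alone, a replicate block and leaving out each sample were alternatives. Replicates of 1 group differed by more than counting noise (chi-square per degree of freedom 3.91 to 85.5), so none were merged, which does not show that they are separate cultures.

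Groups came from the sample labels. The members and the gene lists were chosen with earlier results of these data known. All 9 members are named, and of the other lists the genes called in a day 3 and in a Dnmt1 comparison (4 of 20 and 3 of 10, of which 1 is not reported here). Chromosome neighbours and exon lengths came from GENCODE M21 (GRCm38) by gene name, which matched 17378 of 17915 and 17489 of 18055 tested genes, and promoters from RefSeq.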

Additional observations from a re-analysis of the deposited data

Results flagged for a closer look

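The response to the Dnmt1 vector differed between Tet3-/- and Tet3+/+ cells for 3 of the 9 genes by a test of the difference itself (limma, adjusted p under 0.05 and fold above 1.5). The share of all genes called in this test was 3.99%. The log2 difference of the responses was -1.44 for Crabp1, 0.59 for Dhrs3 and 1.11 for Cyp26a1, with 2 samples per genotype and vector. That of Dhrs3 was at the edge of 1.5-fold. It was 0.58 and not called by DESeq2, and as low as 0.45 with 1 sample left out. All Crabp1 samples with the vector lay below their EV samples in Tet3-/- cells and above them in Tet3+/+ cells, and the reverse held for Cyp26a1. Dnmt1 itself rose more in Tet3-/- than in Tet3+/+ cells, by a log2 difference of 0.42 (limma adjusted p = 0.00502). The part of this in the responses of the 3 genes was not tested.

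In the Tet3-CD experiment, Crabp1 moved in opposite directions in the mutants, with a log2 ratio of Tet3-CD to EV of 0.71 in Tet3m/m and -1.40 in Tet3-/- cells. With 1 sample per group this difference was not tested.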

How the results depend on the processing

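Counts of members called were recomputed under 285 alternatives over 18 comparisons, and 269 stayed within 1.5 times the reported count. Single-member values were recomputed under 2403 alternatives for 162 results, of which 2348 kept their direction and side of the threshold. Without the fold threshold the counts were 5 in Tet3m/m against Tet3+/+ on day 3 and 2 between the mutants. With the Dnmt1 vector against EV they were then 2 in Tet3+/+, 4 in Tet3m/m and 6 in Tet3-/- cells. They were also 8 in Tet3-/- against Tet3+/+ cells, with EV and with the Dnmt1 vector alike, and 1 (Rarg) for the difference of the Dnmt1 response of Tet3m/m from Tet3+/+. The shares of all genes without the fold threshold are not given here and cannot be smaller than those given above with it. These counts are therefore not read as a result about the members. In Tet3-/- against Tet3+/+ on day 3, 1 member was called by DESeq2 and 2 with only the compared groups in the fit, and the count of all genes was 115 by limma and 917 by DESeq2. A threshold of 2-fold left 0 members for Tet3-CD in Tet3m/m. The replicate block (in the Dnmt1 experiment fitted on Tet3m/m and Tet3-/- samples alone) gave 2 members (Dhrs3 and Cyp26b1) between the mutants on day 3 and changed no other count of members by over 1.5 times. Same-numbered samples did not deviate together (correlations of -0.098 to 0.082 over 7 day 3 pairs and -0.066 to 0.0058 over 12 pairs of the Dnmt1 experiment). In groups of 2 the deviations mirror each other, so the 12 pairs are not separate values, and Tet3+/+ samples were left out there. Whether same-numbered samples were handled together therefore cannot be told from these correlations. The cause of the shifts in the counts was not tested.

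Leaving out each sample in turn gave 1 to 4 members in Tet3m/m and 0 to 2 in Tet3-/- against Tet3+/+ on day 3, 1 to 2 between the mutants, and 2 to 3 for the Dnmt1 vector in Tet3-/- cells. With EV it gave 5 to 6 in Tet3m/m and 3 to 4 in Tet3-/- against Tet3+/+ and 6 to 7 between the mutants, with the Dnmt1 vector 6 to 7 in Tet3m/m, and 2 to 4 for the difference of the Dnmt1 response of Tet3-/- from Tet3+/+. The shares of all genes called with 1 sample left out are not given here, so these ranges are not read as a result about the members. The directions that turned when 1 sample was left out belonged to differences that were not called. On day 3 the ranges of log2 values were -0.16 to 0.35 for Stra6 in Tet3m/m, -0.089 to 0.11 for Rarb, -0.51 to 0.088 for Stra6 and -0.17 to 0.26 for Cyp26a1 in Tet3-/-, and -0.15 to 0.23 for Crabp2 between the mutants. For the Dnmt1 vector they were -0.017 to 0.037 for Rarg in Tet3+/+ (-0.042 without one of the Tet3+/+ EV samples), -0.026 to 0.12 for Rarb, -0.0082 to 0.054 for Crabp2 and -0.14 to 0.32 for Cyp26b1 in Tet3m/m, and -0.11 to 0.083 for Stra6 in Tet3-/-. For Tet3-/- against Tet3+/+ with the Dnmt1 vector Stra6 ran from -0.17 to 0.032. For the difference of the Dnmt1 response of Tet3m/m from Tet3+/+ they were -0.10 to 0.043 for Rarb, -0.16 to 0.0025 for Stra6 and -0.37 to 0.088 for Cyp26b1, with 0.0020 for Rarb and 0.012 for Cyp26b1 without one of the Tet3+/+ EV samples.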
